A study of Homo sapiens with 9 samples.

Results

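The genes of the proteasome were examined in RNA-seq libraries of THP-1, an established human line of monocytic leukaemia cells. Members were all genes in the deposited count table whose symbol is PSM followed by a letter from A to G and a number, which gave 47 of 16222 genes. They comprise 18 subunits of the 20S core (PSMA and PSMB genes), 20 genes of the 19S cap and its assembly (PSMC and PSMD), 4 activators (PSME1 to PSME4), the inhibitor PSMF1 and 4 core assembly chaperones (PSMG1 to PSMG4). All cells were wild type and had been given PMA, a phorbol ester that turns THP-1 cells into adherent, macrophage-like cells. The LPS + ABS group then received LPS (bacterial lipopolysaccharide) together with ABS, the LPS group LPS alone, and the control group PBS, the buffer. Each group had 3 libraries. The labels do not spell out ABS, while the series title concerns apoptotic bodies, and the doses and durations are unknown here. Nothing in the labels says that the 3 libraries of a group were grown apart, so each p-value reflects library-to-library spread that may be technical only.

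The proteasome is the main protease of the cytosol and nucleus and degrades proteins tagged with ubiquitin. Its barrel-shaped 20S core has outer rings of alpha subunits (PSMA), which gate entry, and inner rings of beta subunits (PSMB), of which PSMB5, PSMB6 and PSMB7 carry the cutting sites. The 19S cap (PSMC ATPases and PSMD subunits) recognises, unfolds and feeds in the tagged protein, while PSME proteins are alternative caps. In cells of the immune system and under interferon, PSMB8, PSMB9 and PSMB10 are built into new cores in place of PSMB5, PSMB6 and PSMB7. This immunoproteasome yields peptides suited to MHC class I presentation, and macrophages carry it also at rest.

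Total counts per library ran from 38506162 to 41679412, and the 47 members took between 0.661% and 0.792% of them. Of the members, 46 had enough counts to be tested among 12970 genes; PSMB11, the thymic substitute for PSMB5, had 6 counts in LPS + ABS library 1 and 0 in the other 8 libraries. Fold changes of single genes between groups use CPM, read counts divided by TMM-scaled library size. Comparisons between genes, and ratios and sums over genes, use the deposited FPKM, which also divides by gene length. The deposited FPKM is not TMM-scaled, so group means in FPKM and in CPM can differ in their relation to each other. A gene was called higher or lower where the edgeR quasi-likelihood test gave a Benjamini-Hochberg adjusted p under 0.05 over all genes tested; a log2 fold change is given with its standard error (±) and that adjusted p. The 9 monocyte and macrophage markers checked were each above 1 FPKM in every library, with a summed level of 1141 to 1339 FPKM in LPS + ABS, 1106 to 1200.1 FPKM in LPS and 959.9 to 1035 FPKM in control libraries. Each list of T cell, B cell, fibroblast, chondrocyte, epithelial or endothelial markers summed to at most 1.28 FPKM. These sums cover only the markers present in the deposited table. They were 1 of 3 for T cells, 3 of 4 for fibroblasts and 2 of 3 for each other list. These are bulk samples, in which fewer cells of a type and less RNA per cell cannot be told apart.

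Counts followed the GC content of the transcript differently in the LPS + ABS libraries. The slope of log2 counts per 10 points of GC content, taken against the average library, was 0.22, 0.32 and 0.36 in the LPS + ABS libraries, against -0.30, -0.02 and -0.12 in LPS libraries and -0.17, -0.15 and -0.14 in control libraries. The groups with and without ABS did not overlap, so the ABS treatment and this trend cannot be told apart by design. Results that involve the LPS + ABS group are therefore set beside values after a GC correction, in which the fitted trend of each library entered the model. Statements on whether libraries overlap refer to uncorrected CPM unless corrected values are named.

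In control cells the members' mean FPKM spanned from 0.942 for PSMG4, a core assembly chaperone, to 482 for PSMB4, a beta subunit without a cutting site, leaving aside PSMB11. PSMB4 stood clear of the next member, the activator subunit PSME2, as its lowest control library (466 FPKM) exceeded the highest of PSME2 (366 FPKM). After these came PSMB3 at 342 ± 6.47 FPKM, PSMA7 at 314 ± 9.06 FPKM and PSMD4, a ubiquitin receptor of the cap, at 297 ± 1.77 FPKM (SD, n = 3). The ranges of these neighbours did not overlap in the control libraries, whereas PSMB1 and PSMB8, next in order, overlapped. Subunits that stand in equal number in the complex differed widely in FPKM, a value that depends on the gene length used as divisor. Within the alpha ring the control mean was 7.87 times higher for PSMA7 than for PSMA4, and within the constitutive beta ring 10.1 times higher for PSMB4 than for PSMB2. Among the 6 ATPases PSMC3 was 16.3 times higher than PSMC6, with 224 ± 8.49 FPKM against 13.7 ± 1.96 FPKM in control libraries. The divisor was 962 bases for PSMA7 against 4467 for PSMA4, and 918 for PSMB4 against 4528 for PSMB2. It was 1540 bases for PSMC3 against 3689 for PSMC6. In CPM, without division by length, the control means of these pairs were closer, at 291 against 172, 427 against 209 and 333 against 48.7. Whether these lengths match the transcripts present was not tested.

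LPS alone moved few members. Between LPS and control, 0 of 46 members were called higher and 1 lower (PSMB2), where 14.9% of all genes tested were called, 7.71% higher and 7.19% lower. The members' median log2 fold change was -0.05 (range -0.44 to 0.52), beside -0.03 over all genes. At an unadjusted p under 0.05 there were 8 members, and DESeq2 called 1 higher and 2 lower. The 3 LPS libraries lay apart from the 3 control libraries for 23 of 46 members, beside 42.6% of all genes. After GC correction 2 members were called higher (PSMA4 and PSMC2) and PSMB2 again lower, against a background of 21.1% (11.4% higher, 9.70% lower).

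With ABS added to LPS, more members were called, in both directions, but most of the calls followed GC content. Between LPS + ABS and LPS, 6 of 46 members were called higher and 15 lower, or 45.7%, where 35.6% of all genes were called (16.8% higher, 18.8% lower). The members' median log2 fold change was 0.00, beside 0.02 over all genes. The libraries of the groups did not overlap for 29 of 46 members, beside 46.2% of all genes. Members called lower had a median GC content of 41.5% and members called higher 54.8%. Across the 46 members, Spearman's rho between log2 fold change and GC content was 0.67, given as a description since genes of 1 set of libraries are not independent replicates. After GC correction rho was -0.09 and 6 members were called, 2 higher (PSMB2, PSMD12) and 4 lower (PSMB9, PSMC1, PSME2, PSMG2), or 13.0% beside 9.21% of all genes (4.98% higher, 4.23% lower). Called both from the counts and after correction, and in the same direction, were PSMB2, PSMC1 and PSMG2. Of all 46 members, 11 had a log2 fold change of the opposite sign after correction, among them PSMB6, PSMB8 and PSMB10.

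Of the 18 calls no longer made after correction, 4 had changed sign. Their median absolute log2 fold change was 0.16 after correction, against 0.48 before it, with a median SE of 0.13 on both scales. From counts, 12 members were called without LPS library 1 or without LPS library 3, and 14 without LPS + ABS library 2, in place of 21, and after correction 2 (without LPS + ABS library 3 or LPS library 1 or 3), 3 (without LPS + ABS library 2) or 9 (without LPS + ABS library 1), in place of 6. Against control, LPS + ABS had 3 members called higher and 12 lower, where 33.8% of all genes were called (14.8% higher, 19% lower). Libraries did not overlap for 23 of 46 members, beside 50% of all genes. After GC correction 1 was higher (PSMB2) and 2 lower (PSMC1, PSMD1), beside 13.0% of all genes (7.96% higher, 5.07% lower). The sign turned for 19 of the 46, all 3 immunoproteasome subunits included, which were above 0 from counts and below 0 after correction. Spearman's rho with GC content was 0.77 from counts and -0.14 after correction over the 46 members. In place of 15 calls, 7 were made without control library 1 and 9 without control library 2, and after correction, in place of 3, 0 without LPS + ABS library 2 or control library 1 or 2, 5 without LPS + ABS library 3 and 7 without LPS + ABS library 1. The 3 comparisons share libraries, so the values of a member are set side by side and are not independent of each other.

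**Figure D1:**
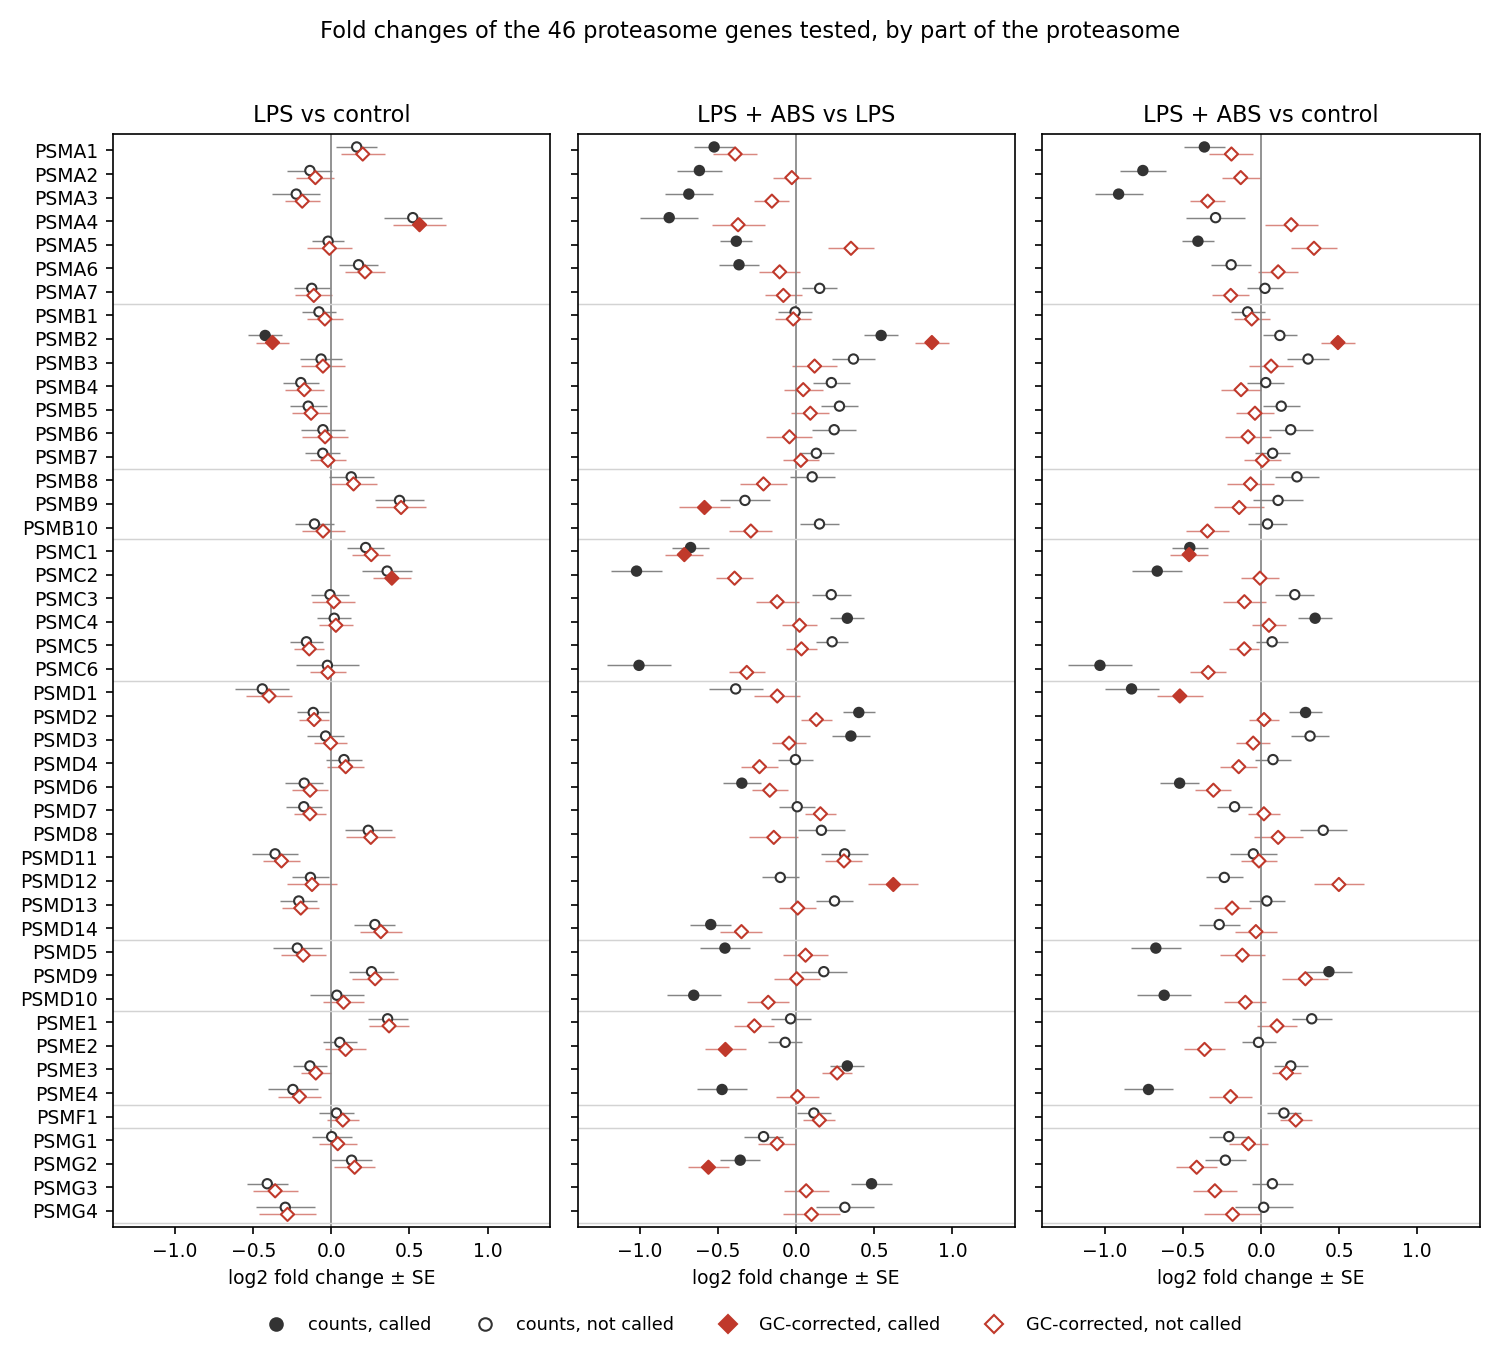
Log2 fold change with standard error (x axis) of each of the 46 tested members (rows, grouped by part of the proteasome) in the 3 comparisons, from counts (circles) and after GC correction (diamonds), filled where called. With LPS + ABS against LPS, 6 of 7 alpha subunits are called lower from counts and 0 after correction, while PSMB2 and PSMC1 keep their direction and their call.

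**Figure D2:**
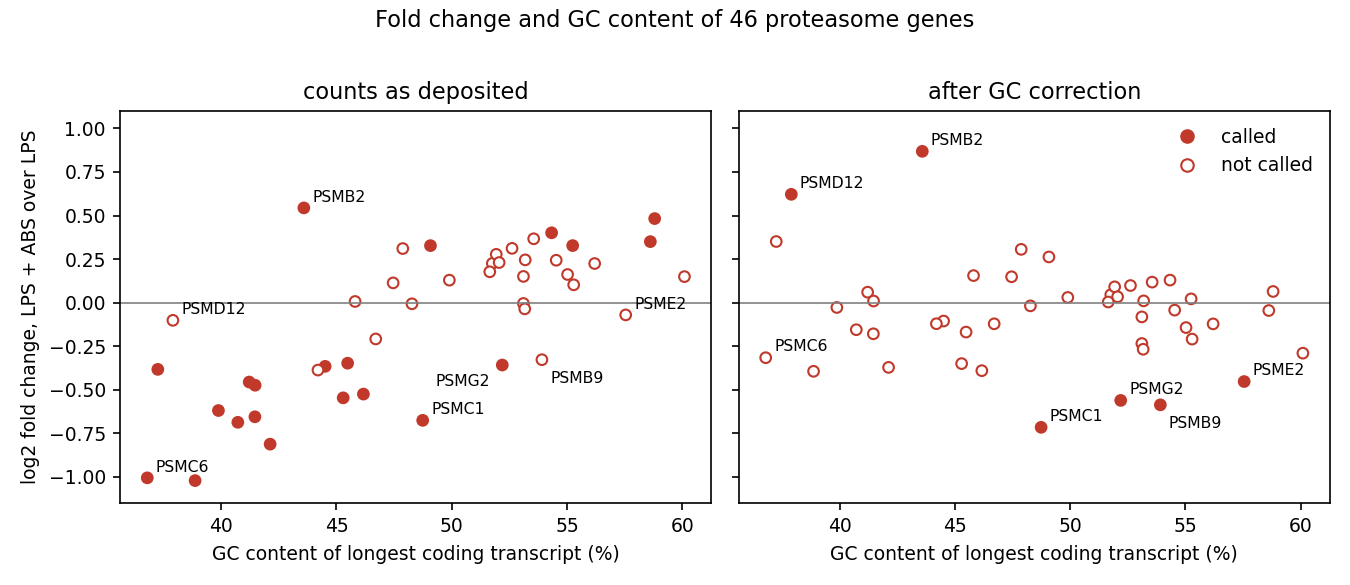
Log2 fold change between LPS + ABS and LPS (y axis) against the GC content of each member's longest coding transcript in percent (x axis), from counts (left) and after GC correction (right), with called members filled. The 10 members with less GC than PSMB2 lie below 0 from counts (Spearman's rho 0.67 over 46 members), and PSMB2, at 43.6% GC, lies above 0 in both panels.

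The immunoproteasome subunits were expressed above the level of the subunits they replace in every library, control included. PSMB8, the substitute for the chymotrypsin-like subunit PSMB5, averaged 265 ± 40.9 FPKM in LPS + ABS, 265 ± 30.2 FPKM in LPS and 248 ± 13.7 FPKM in control libraries (SD, n = 3 each). PSMB5 averaged 127 ± 10.7, 112 ± 5.95 and 127 ± 4.49 FPKM in the same order of groups. PSMB9, the substitute for the caspase-like subunit PSMB6, averaged 102 ± 20.5 FPKM in LPS + ABS, 138 ± 13.5 FPKM in LPS and 104 ± 4.74 FPKM in control libraries, against 88.8 ± 12.7, 80.7 ± 9.05 and 85.3 ± 1.31 FPKM for PSMB6. PSMB10, the substitute for the trypsin-like subunit PSMB7, averaged 174 ± 23.5 FPKM in LPS + ABS, 169 ± 7.21 FPKM in LPS and 185 ± 2.0 FPKM in control libraries, against 139 ± 11.1, 136 ± 9.63 and 144 ± 0.933 FPKM for PSMB7.

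**Figure D3:**
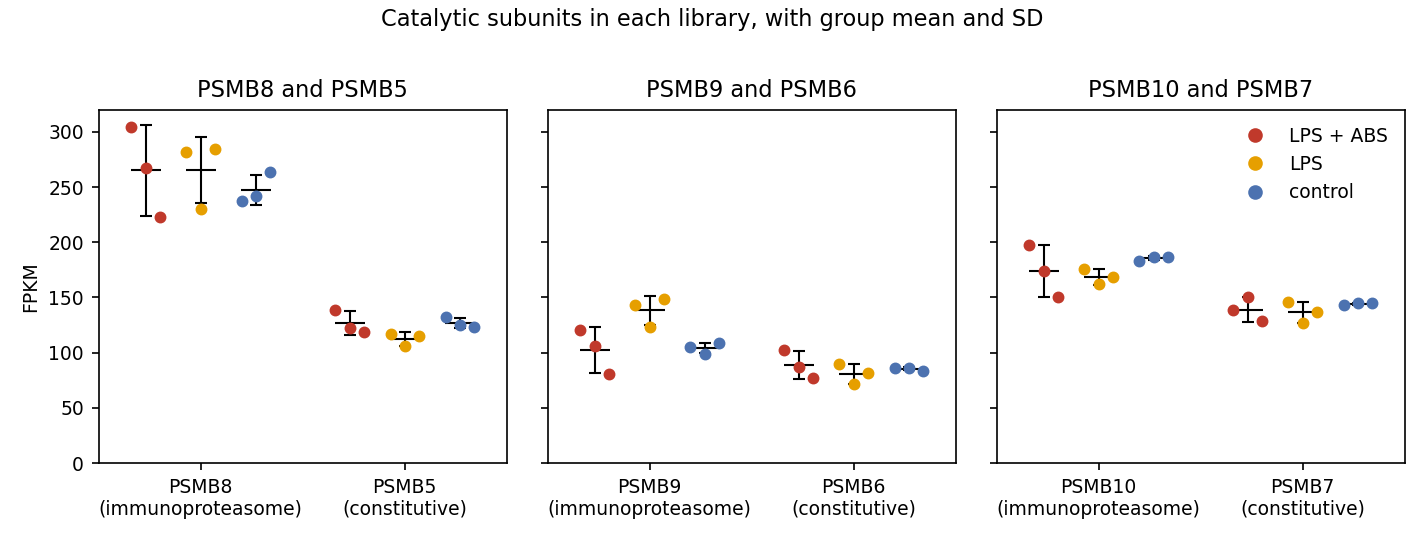
FPKM (y axis) of each immunoproteasome subunit and the constitutive subunit it replaces in every library (points, coloured by group), with the group mean and SD (bars). The LPS libraries of PSMB9 lie at 144, 123 and 148 FPKM, above the 3 control libraries at 105, 99.0 and 108 FPKM, and each immunoproteasome subunit is above its counterpart in every library.

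Promoter sequence was set beside these genes because interferon acts on the immunoproteasome and PA28 genes through short elements near their start. The lines give 120 bases, 100 before and 20 after the annotated gene start, 5′ to 3′ on the strand of the gene, from RefSeq (GRCh38.p14). Capitals mark matches to the core of the interferon-stimulated response element (GAAA, any 2 bases, GAAA), searched on both strands, so that TTTC, any 2 bases, TTTC is the same match on the opposite strand. PSMB8 has a further annotated start, not shown, whose printed window held no match.
PSMB8, chr6:32844028-32844147 (minus strand): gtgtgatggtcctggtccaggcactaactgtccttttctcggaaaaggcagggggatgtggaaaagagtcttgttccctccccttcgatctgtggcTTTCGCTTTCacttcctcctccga
PSMB9, chr6:32854092-32854211 (plus strand): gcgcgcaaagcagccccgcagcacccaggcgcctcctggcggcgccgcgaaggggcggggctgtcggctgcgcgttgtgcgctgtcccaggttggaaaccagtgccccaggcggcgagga
PSMB10, chr16:67936831-67936950 (minus strand): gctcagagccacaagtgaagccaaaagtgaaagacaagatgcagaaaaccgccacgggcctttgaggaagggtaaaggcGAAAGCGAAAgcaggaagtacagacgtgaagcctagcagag
PSME1, chr14:24136094-24136213 (plus strand): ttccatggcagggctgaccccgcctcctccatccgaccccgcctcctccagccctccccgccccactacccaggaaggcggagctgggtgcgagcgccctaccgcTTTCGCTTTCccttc
PSME2, chr14:24146591-24146710 (minus strand): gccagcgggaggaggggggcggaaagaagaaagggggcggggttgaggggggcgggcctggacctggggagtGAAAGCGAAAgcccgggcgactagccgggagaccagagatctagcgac
PSMB2, chr1:35641507-35641626 (minus strand): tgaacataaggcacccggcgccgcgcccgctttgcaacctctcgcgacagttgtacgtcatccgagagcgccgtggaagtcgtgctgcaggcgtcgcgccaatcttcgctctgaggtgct

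In the table's full window of 300 bases, from 250 before to 50 after the start, the response element core occurred in 7 of the 41 members with an entry (17.1%), namely PSMA4, PSMB4, PSMB8, PSMB10, PSME1, PSME2 and PSMG4, and in 4.38% of 27305 genes. The match began 4 bases before the start in PSMB8, 21 in PSMB10 and 28 in PSME2, and just past it in PSME1. PSMB9 and PSMB2 had none in the window, which says only that these letters are not in it. TGACNNNGC, the core of the antioxidant response element through which NFE2L1 and NFE2L2 act, occurred in 15 of 41 members (36.6%) and in 16.1% of genes. CCAAT, the box bound by the NF-Y factor, occurred in 20 of 41 members (48.8%) and in 39.7% of genes. A match is a description of sequence and not evidence of binding.

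PSMB9 had 134, 112 and 84.5 CPM in LPS + ABS libraries, 139.9, 123 and 152 CPM in LPS libraries and 102, 96.4 and 108 CPM in control libraries. The LPS libraries were all above the control libraries, and LPS + ABS overlapped both. The log2 fold change was 0.44 ± 0.16, adjusted p = 0.0842 between LPS and control, so it was not called, and -0.33 ± 0.16, adjusted p = 0.123 between LPS + ABS and LPS. PSMB9 was called lower in LPS + ABS than in LPS after GC correction (-0.59 ± 0.16, adjusted p = 0.0401), a call that was lost without LPS + ABS library 2 or 3 or LPS library 1 or 3 (adjusted p = 0.0805 to 0.141). Its GC-corrected CPM were 119.6, 99.6 and 73.5 in LPS + ABS libraries, 159, 124 and 157 in LPS libraries and 109.5, 101 and 112 in control libraries, with LPS + ABS below LPS and overlapping control. From counts it was called without LPS + ABS library 1 (adjusted p = 0.0221), and the GC-corrected difference between LPS and control was called without LPS library 2 (adjusted p = 0.0472).

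PSMB8 had 507, 423 and 351 CPM in LPS + ABS libraries, 411, 346 and 437 CPM in LPS libraries and 348, 353 and 393 CPM in control libraries. The groups overlapped in every comparison, with log2 fold changes of 0.10 ± 0.14, adjusted p = 0.602 between LPS + ABS and LPS and 0.13 ± 0.14, adjusted p = 0.605 between LPS and control. After GC correction the sign of the difference between LPS + ABS and LPS turned (-0.21 ± 0.15, adjusted p = 0.375). PSMB8 lies across from an antisense gene, PSMB8-AS1, and the strand setting of the counting is not known, so reads of the pair cannot be told apart with certainty. PSMB10 had 211, 177 and 152 CPM in LPS + ABS libraries, 165, 156 and 166 CPM in LPS libraries and 172, 175 and 178 CPM in control libraries. LPS libraries of PSMB10 lay below the control libraries by a small margin (log2 fold change -0.11 ± 0.13, adjusted p = 0.624), and LPS + ABS overlapped both (0.15 ± 0.13, adjusted p = 0.378 against LPS). After GC correction the difference from LPS was of the opposite sign (-0.29 ± 0.14, adjusted p = 0.185), and the corrected CPM were 166, 152 and 127 in LPS + ABS libraries, 215, 151 and 177 in LPS libraries and 184, 187 and 194 in control libraries. On that scale LPS + ABS lay below control (-0.34 ± 0.14, adjusted p = 0.118) and overlapped LPS, and LPS overlapped control.

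The ratio of each immunoproteasome subunit to the subunit it replaces was compared within libraries, which removes any scaling of the whole library. The PSMB9 to PSMB6 ratio of FPKM was 1.18, 1.21 and 1.05 in LPS + ABS, 1.61, 1.72 and 1.82 in LPS and 1.21, 1.15 and 1.29 in control libraries. All 3 LPS libraries stood above all libraries of the other 2 groups, which overlapped each other. Expressed as a share, PSMB9 made up 53.4% ± 1.96 of the 2 transcripts in LPS + ABS, 63.2% ± 1.46 in LPS and 54.9% ± 1.4 in control libraries (SD, n = 3 each). The log2 difference in the ratio was -0.58 ± 0.08 between LPS + ABS and LPS and 0.49 ± 0.07 between LPS and control. These 2 genes have a similar GC content (53.9% and 54.5%), and after GC correction the differences were -0.56 ± 0.09 and 0.49 ± 0.07. Each had an exact two-sided permutation p = 0.1, the smallest that 3 against 3 libraries allow, and an adjusted p of 0.30 (0.33 with GC correction) by Benjamini-Hochberg over 33 tests of ratios and sums, so that neither passed.

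The PSMB8 to PSMB5 ratio was 2.19, 2.18 and 1.87 in LPS + ABS, 2.42, 2.18 and 2.46 in LPS and 1.80, 1.93 and 2.13 in control libraries. LPS stood above control without overlap (log2 difference 0.27 ± 0.09, exact permutation p = 0.1, adjusted 0.30), while LPS + ABS overlapped LPS (-0.18 ± 0.09). After GC correction both statements on overlap changed, while both differences kept their sign. LPS then overlapped control (0.26 ± 0.12, exact permutation p = 0.2, adjusted 0.51), and LPS + ABS lay below LPS without overlap (-0.29 ± 0.10, exact permutation p = 0.1, adjusted 0.33). The PSMB10 to PSMB7 ratio was 1.25 ± 0.151 in LPS + ABS, 1.24 ± 0.0348 in LPS and 1.28 ± 0.00595 in control libraries (SD, n = 3 each). PSMB10 has the highest GC content of the members tested (60.1%, against 49.9% for PSMB7), and the LPS + ABS minus LPS difference in this ratio was 0.01 ± 0.10 from the deposited values, with overlap, and -0.31 ± 0.10 after correction, without overlap (exact permutation p = 0.1, adjusted 0.33).

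**Figure D4:**
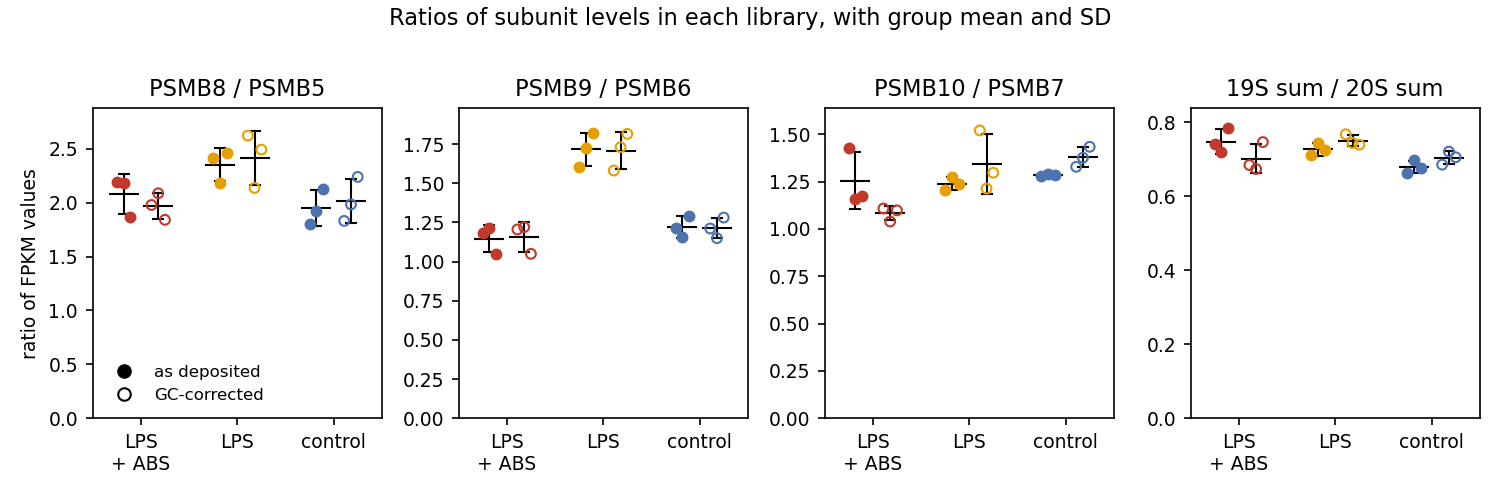
Ratio of FPKM values within each library (y axis) for the 3 immunoproteasome subunits over their constitutive counterparts and for the summed 19S over the summed constitutive 20S subunits, as deposited (filled) and after GC correction (open), with group mean and SD. The PSMB9 to PSMB6 ratio in LPS libraries (1.61, 1.72 and 1.82) lies above every LPS + ABS and control library with and without correction.

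Of the constitutive beta subunits, PSMB2 was lower with LPS and higher with LPS + ABS than with LPS. PSMB2, a beta subunit without a cutting site, had 222, 231 and 229 CPM in LPS + ABS libraries, 149, 155 and 164 CPM in LPS libraries and 204, 199 and 225 CPM in control libraries. Every LPS library lay below every library of the other groups, and LPS + ABS overlapped control. It fell with LPS relative to control (-0.42 ± 0.11, adjusted p = 0.0202), and was higher in LPS + ABS than in LPS (0.54 ± 0.11, adjusted p = 0.00577). The fall with LPS lost its call without LPS library 2 or 3 or any control library (adjusted p = 0.0587 to 0.102). After GC correction it was -0.38 ± 0.11, adjusted p = 0.0255, and the call was lost without LPS library 1 or 2 or any control library (adjusted p = 0.0553 to 0.110).

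After GC correction PSMB2 was higher in LPS + ABS than in LPS (0.87 ± 0.11, adjusted p = 0.00191) and than in control (0.49 ± 0.11, adjusted p = 0.0113), and its GC-corrected CPM were 254, 284 and 259 in LPS + ABS libraries, 132, 148 and 156 in LPS libraries and 184, 179 and 204 in control libraries. On this scale the 3 groups were separate. The call against LPS was kept without each of the 6 libraries in turn, with and without GC correction. The corrected call against control was lost without LPS + ABS library 2 or control library 1 or 2 (adjusted p = 0.0519 to 0.0720).

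The other 6 constitutive beta subunits were called in no comparison with all libraries, from counts or after GC correction. Without LPS + ABS library 3, PSMB3, PSMB4 and PSMB5 were called from counts against LPS, and PSMB3 also against control. PSMB5, the chymotrypsin-like subunit and main target of proteasome inhibitor drugs, had 189, 158 and 153 CPM in LPS + ABS libraries, 139, 129 and 144 CPM in LPS libraries and 157, 149 and 150.5 CPM in control libraries, with 0.28 ± 0.12, adjusted p = 0.0825 between LPS + ABS and LPS from counts. After correction it had 0.09 ± 0.12, adjusted p = 0.658. PSMB6, the caspase-like subunit, had 94.2, 76.5 and 67.0 CPM in LPS + ABS libraries, 72.3, 59.3 and 69.3 CPM in LPS libraries and 69.9, 69.3 and 69.3 CPM in control libraries (0.24 ± 0.14, adjusted p = 0.196 between LPS + ABS and LPS). After correction the sign turned (-0.04 ± 0.15, adjusted p = 0.872). PSMB7, the trypsin-like subunit, had 149, 154 and 131 CPM in LPS + ABS libraries, 138, 123 and 135 CPM in LPS libraries and 135, 137 and 139.6 CPM in control libraries, with groups overlapping in all 3 comparisons. Its LPS + ABS minus LPS difference was 0.13 ± 0.11, adjusted p = 0.390 from counts and 0.03 ± 0.12, adjusted p = 0.889 after correction. Between LPS and control all 7 constitutive beta subunits had a negative log2 fold change (-0.42 to -0.05), of which that of PSMB2 was called.

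**Figure D5:**
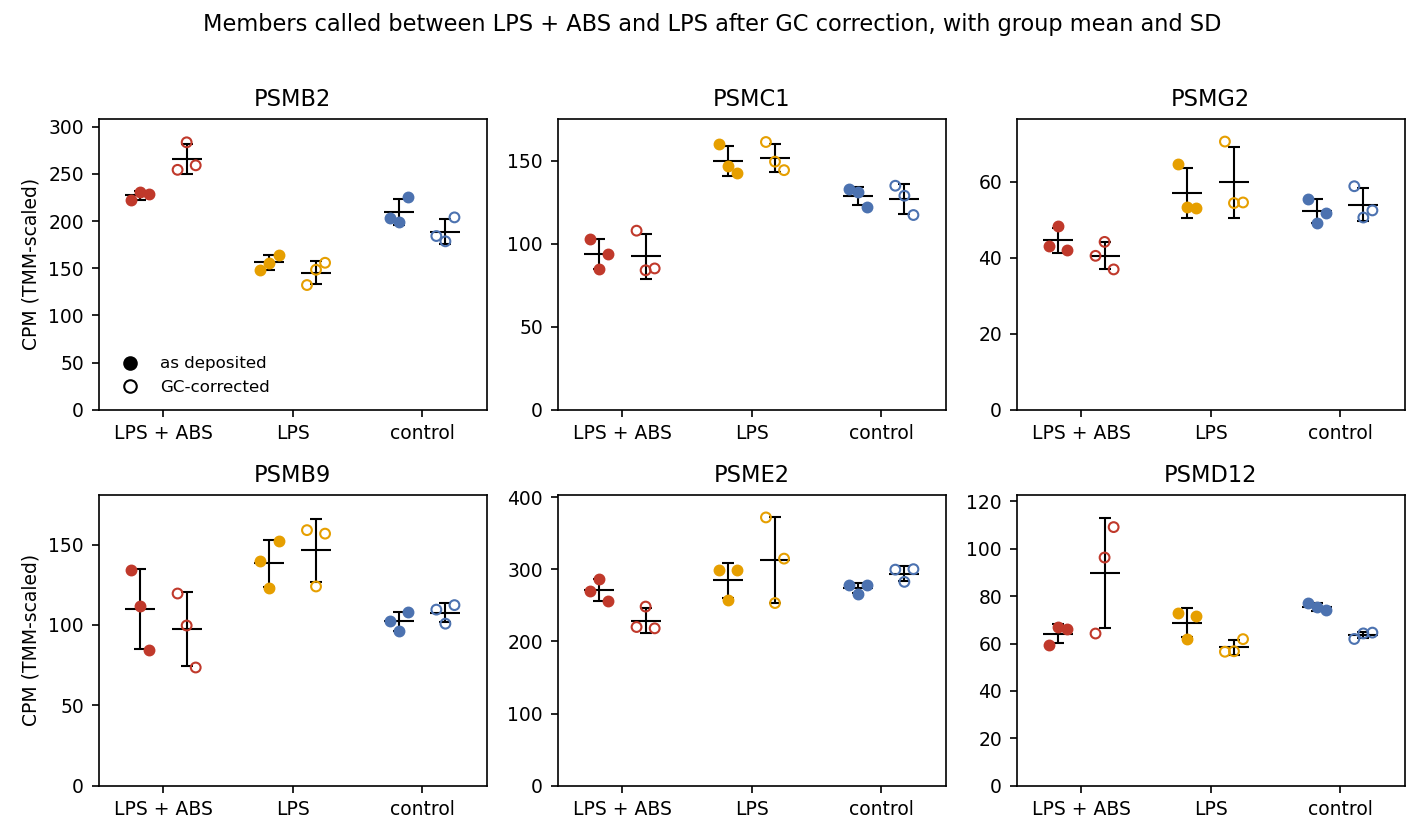
TMM-scaled CPM (y axis) in every library of the 6 members called between LPS + ABS and LPS after GC correction, as deposited (filled) and GC-corrected (open), by group, with mean and SD. PSMB2 in LPS libraries (149, 155 and 164 CPM) lies below both other groups, and PSMC1 in LPS + ABS libraries (103, 84.8 and 93.6 CPM) lies below both.

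Most alpha subunits were called lower with LPS + ABS than with LPS from the counts and none after GC correction. From counts 6 of 7 alpha subunits were called lower and 0 higher (85.7%, beside 18.8% of all genes called lower and 16.8% higher), with a median log2 fold change of -0.53. PSMA7 was not called (0.15 ± 0.11, adjusted p = 0.320, and -0.08 ± 0.12, adjusted p = 0.679 after correction). After correction 0 of 7 were called, beside 9.21% of all genes (3 had an unadjusted p under 0.05), and the median was -0.11. The alpha subunits have a median GC content of 42.1%, and PSMA7, the exception, has the highest of them (53.1%). The summed FPKM of the 7 subunits was 594 ± 64.8 in LPS + ABS, 759 ± 59.2 in LPS and 788 ± 28.7 in control libraries (SD, n = 3 each), and after GC correction 666 ± 76.4, 718 ± 38.1 and 719.9 ± 21.6. The corrected sums are also TMM-scaled, so they differ from the deposited sums by more than the GC trend.

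PSMA4 had 164, 158 and 98.2 CPM in LPS + ABS libraries, 271, 229 and 238 CPM in LPS libraries and 194, 179.7 and 141 CPM in control libraries. LPS stood above both other groups, which overlapped. PSMA4 was not called between LPS and control from counts (0.52 ± 0.19, adjusted p = 0.0788) and was called higher after GC correction (0.56 ± 0.17, adjusted p = 0.0321), a call lost without any LPS library or control library 2 or 3 (adjusted p = 0.0633 to 0.135). Between LPS + ABS and LPS its log2 fold change was -0.81 ± 0.19, adjusted p = 0.00871 from counts and -0.37 ± 0.17, adjusted p = 0.170 after correction.

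PSMA3 had 76.6, 61.0 and 51.9 CPM in LPS + ABS libraries, 111, 96.5 and 97.8 CPM in LPS libraries and 135, 115 and 107 CPM in control libraries, all LPS + ABS libraries being below the others. It was called lower in LPS + ABS than in LPS (-0.69 ± 0.15, adjusted p = 0.00795) and than in control (-0.91 ± 0.15, adjusted p = 0.00182), and not after correction (-0.16 ± 0.11, adjusted p = 0.379 and -0.34 ± 0.11, adjusted p = 0.0620). PSMA2 had 76.1, 77.0 and 55.7 CPM in LPS + ABS libraries, 114, 104 and 103 CPM in LPS libraries and 131, 115 and 107 CPM in control libraries, with the LPS + ABS libraries again lowest. Its log2 fold change against control was -0.76 ± 0.15, adjusted p = 0.00311 from counts and -0.13 ± 0.12, adjusted p = 0.525 after correction. PSMA5, at 37.2% GC, differed from LPS by -0.38 ± 0.10, adjusted p = 0.0151 from counts and, with the opposite sign, by 0.35 ± 0.15, adjusted p = 0.137 after correction. The calls from counts against LPS were lost without LPS library 3 (adjusted p = 0.0545) for PSMA5 and without LPS + ABS library 3 or LPS library 1 or 3 (adjusted p = 0.0930 to 0.112) for PSMA6, and those against control without control library 1 (adjusted p = 0.0545) for PSMA5 and without LPS + ABS library 3 or any control library (adjusted p = 0.0944 to 0.150) for PSMA1. Without LPS + ABS library 1 the corrected difference of PSMA5 was called higher, against LPS (adjusted p = 0.0152) and against control (adjusted p = 0.0185). In the same corrected fits PSMA1 was also called against LPS and PSMA3 against control. Without LPS + ABS library 3 the corrected difference of PSMA4 from control was called.

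Among the 6 ATPases of the cap base, which form the ring that unfolds substrates, PSMC1 was lower with LPS + ABS on both scales. From counts 3 of 6 were called lower than in LPS (PSMC1, PSMC2, PSMC6) and 1 higher (PSMC4), 66.7% beside 35.6% of all genes. After GC correction PSMC1 was the member of this ring still called. PSMC1 had 103, 84.8 and 93.6 CPM in LPS + ABS libraries, 160.1, 147 and 143 CPM in LPS libraries and 133, 131 and 122 CPM in control libraries. The LPS + ABS libraries were below all others, and LPS libraries above all control libraries. Its log2 fold change was -0.68 ± 0.12, adjusted p = 0.00443 against LPS and -0.46 ± 0.12, adjusted p = 0.0118 against control, and after correction -0.72 ± 0.12, adjusted p = 0.00747 and -0.46 ± 0.12, adjusted p = 0.0262.

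The PSMC1 call against LPS was kept without each of the 6 libraries in turn, from counts and after correction, whereas the call against control was lost without control library 1 or 2 (adjusted p = 0.0503 to 0.0568) from counts and without LPS + ABS library 2 or control library 1 or 2 (adjusted p = 0.0991 to 0.119) after correction. RefSeq names 13 pseudogenes of PSMC1, more than of any other member, and its span overlaps NRDE2, so how the counting split such reads can affect its value.

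PSMC2 had 72.4, 49.0 and 52.7 CPM in LPS + ABS libraries, 119.5, 121 and 113 CPM in LPS libraries and 106, 92.2 and 78.2 CPM in control libraries, with the groups apart in all 3 comparisons. LPS libraries were highest and LPS + ABS lowest. Its log2 fold change was -1.02 ± 0.16, adjusted p = 0.00376 between LPS + ABS and LPS, -0.39 ± 0.12, adjusted p = 0.0567 after GC correction, and -0.66 ± 0.16, adjusted p = 0.00924 between LPS + ABS and control, -0.01 ± 0.12, adjusted p = 0.976 after correction. Between LPS and control PSMC2 was called higher after correction alone (0.39 ± 0.12, adjusted p = 0.0364), a call lost without LPS library 2 or 3 or any control library (adjusted p = 0.0512 to 0.155). The corrected difference from LPS was called without LPS + ABS library 1 (adjusted p = 0.0441), and the call from counts against control was lost without control library 1 (adjusted p = 0.0519).

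PSMC6, which has the lowest GC content of the members (36.8%), had 31.8, 22.9 and 16.9 CPM in LPS + ABS libraries, 54.5, 45.0 and 44.1 CPM in LPS libraries and 56.0, 46.9 and 43.3 CPM in control libraries. LPS + ABS libraries were at about 0.498 times the LPS level and did not overlap the others. The log2 fold change against LPS was -1.01 ± 0.21, adjusted p = 0.00628 from counts and -0.32 ± 0.11, adjusted p = 0.0926 after correction. PSMC4 was called higher in LPS + ABS than in LPS from counts (0.33 ± 0.11, adjusted p = 0.0354), a call lost without LPS + ABS library 1 or 2 or any LPS library (adjusted p = 0.0664 to 0.120) and after GC correction (0.02 ± 0.11, adjusted p = 0.917). PSMC3 and PSMC5 were called in no comparison.

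Of the 11 non-ATPase subunits of the cap, 2 were called higher in LPS + ABS than in LPS from counts, PSMD2 and PSMD3, and 2 lower, PSMD6 and PSMD14. This was 36.4% beside 35.6% of all genes. PSMD2, the large scaffold of the cap base, differed by 0.40 ± 0.10, adjusted p = 0.0132 and the lid subunit PSMD3 by 0.35 ± 0.12, adjusted p = 0.0397. PSMD14, the enzyme that removes ubiquitin as the substrate enters, differed by -0.55 ± 0.13, adjusted p = 0.0103 and the lid subunit PSMD6 by -0.35 ± 0.12, adjusted p = 0.0434. After GC correction none of these 4 was called (adjusted p = 0.110 to 0.811), and the sign of PSMD3 turned (-0.05). The call of PSMD3 was also lost without LPS + ABS library 1 or 3 or any LPS library (adjusted p = 0.0579 to 0.122) and that of PSMD6 without LPS + ABS library 2 or 3 or LPS library 1 or 3 (adjusted p = 0.0689 to 0.129).

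PSMD12, a lid subunit at 37.9% GC, was called higher in LPS + ABS than in LPS after correction (0.62 ± 0.16, adjusted p = 0.0328) but had -0.10 from counts, with adjusted p = 0.525. Its libraries had 59.5, 66.8 and 66.1 CPM in LPS + ABS libraries, 73.0, 61.8 and 71.6 CPM in LPS libraries and 77.1, 75.4 and 74.0 CPM in control libraries. The deposited values of LPS + ABS and LPS overlapped. Corrected, they were 64.2, 96.3 and 109 in LPS + ABS libraries, 56.5, 56.7 and 61.9 in LPS libraries and 61.9, 64.3 and 64.6 in control libraries, so the LPS + ABS libraries spread widely and lay above LPS. The corrected call was lost without LPS + ABS library 2 or 3 or any LPS library (adjusted p = 0.0763 to 0.103).

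PSMD1, the other large scaffold of the base, was lower with LPS + ABS than in control. It had 71.6, 48.5 and 86.6 CPM in LPS + ABS libraries, 93.4, 89.1 and 88.0 CPM in LPS libraries and 124, 124 and 119 CPM in control libraries. Control libraries were above all others, and the LPS + ABS libraries, below the LPS ones, spread most. The log2 fold change between LPS + ABS and control was -0.83 ± 0.17, adjusted p = 0.00445 from counts and -0.52 ± 0.15, adjusted p = 0.0357 after correction. The corrected call was lost without LPS + ABS library 2 or any control library (adjusted p = 0.0783 to 0.120). Between LPS and control it was -0.44 ± 0.17, adjusted p = 0.104. PSMD6 had 49.6, 45.6 and 45.9 CPM in LPS + ABS libraries, 65.7, 53.5 and 60.4 CPM in LPS libraries and 69.3, 69.5 and 63.7 CPM in control libraries, and its log2 fold change between LPS + ABS and control was -0.52 ± 0.12, adjusted p = 0.00807 from counts and -0.31 ± 0.12, adjusted p = 0.0975 after correction.

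The summed FPKM of the 17 cap subunits over that of the 14 constitutive core subunits was 0.747 ± 0.0333 in LPS + ABS, 0.726 ± 0.0172 in LPS and 0.679 ± 0.0169 in control libraries (SD, n = 3 each). LPS lay above control on both scales (log2 difference 0.10 ± 0.03, and 0.09 ± 0.03 after GC correction, exact permutation p = 0.1 each). The adjusted permutation p was 0.30 as deposited and 0.33 after correction, so neither passed. The difference between LPS + ABS and LPS was 0.04 ± 0.04 as deposited and -0.10 ± 0.05 after correction. Between LPS + ABS and control it was 0.14 ± 0.04 as deposited (exact permutation p = 0.1, adjusted 0.30) and -0.006 ± 0.051 after correction. Of the 3 chaperones of cap assembly, PSMD5 (41.2% GC) and PSMD10 (41.5%) were called lower in LPS + ABS than in LPS (-0.46 ± 0.16, adjusted p = 0.0425, and -0.66 ± 0.17, adjusted p = 0.0146), PSMD9 (51.7%) was not (0.18 ± 0.15, adjusted p = 0.362), and after correction 0 of the 3 were called (also 0 at an unadjusted p under 0.05). PSMD9 was called higher in LPS + ABS than in control from counts (0.43 ± 0.15, adjusted p = 0.0378) and not after correction (0.28 ± 0.15, adjusted p = 0.229). The call of PSMD5 against LPS was lost without LPS + ABS library 1 or 2 or LPS library 1 or 3 (adjusted p = 0.0560 to 0.141), that of PSMD10 without LPS + ABS library 2 or LPS library 1 (adjusted p = 0.0508 to 0.0515), and that of PSMD9 against control without LPS + ABS library 1 or 2 or any control library (adjusted p = 0.0780 to 0.135).

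Of the activators, PSME1 and PSME2 form PA28 alpha-beta, the interferon-regulated cap that assists peptide production, PSME3 forms the nuclear PA28 gamma, and PSME4 is PA200, linked to the degradation of acetylated histones. PSME1 had 272, 250.5 and 217 CPM in LPS + ABS libraries, 246, 224 and 288 CPM in LPS libraries and 203, 191 and 196 CPM in control libraries. LPS and LPS + ABS libraries were above all control libraries and overlapped each other. Between LPS and control the log2 fold change was 0.36 ± 0.13, adjusted p = 0.0771, and PSME1 was called without LPS library 2 (adjusted p = 0.0406), or without LPS library 2 (adjusted p = 0.0315) with GC correction. Against control, LPS + ABS differed by 0.32 ± 0.13, adjusted p = 0.0662, which was called without LPS + ABS library 3 (adjusted p = 0.0236), and after GC correction it was 0.10 ± 0.13, adjusted p = 0.653.

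PSME2 had 270.2, 286 and 257 CPM in LPS + ABS libraries, 298, 257 and 299 CPM in LPS libraries and 278, 266 and 278 CPM in control libraries, and the groups overlapped in all 3 comparisons. It was not called between LPS + ABS and LPS from counts (-0.07 ± 0.11, adjusted p = 0.635) and was called lower after correction (-0.45 ± 0.13, adjusted p = 0.0487), where its GC-corrected CPM were 219.9, 248 and 218 in LPS + ABS libraries, 372, 253 and 315 in LPS libraries and 299, 282 and 300.04 in control libraries. LPS library 1 was the highest of these, and the call was lost without any LPS + ABS library or LPS library 1 or 3 (adjusted p = 0.0556 to 0.169). RefSeq names 6 pseudogenes of PSME2.

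PSME3 had 265, 270.3 and 296 CPM in LPS + ABS libraries, 221, 212 and 229.9 CPM in LPS libraries and 229.6, 235 and 264 CPM in control libraries, LPS + ABS lying above LPS and control. It was called higher in LPS + ABS than in LPS (0.33 ± 0.11, adjusted p = 0.0351), a call lost without LPS + ABS library 2 or 3 or any LPS library (adjusted p = 0.0583 to 0.120) and after GC correction (0.26 ± 0.10, adjusted p = 0.0959). PSME4 had 47.8, 31.4 and 48.4 CPM in LPS + ABS libraries, 61.9, 59.2 and 56.3 CPM in LPS libraries and 70.4, 71.0 and 68.9 CPM in control libraries, the LPS + ABS libraries being lowest and the control libraries highest, without overlap. From counts PSME4 was lower in LPS + ABS than in LPS (-0.47 ± 0.16, adjusted p = 0.0352) and than in control (-0.72 ± 0.16, adjusted p = 0.00575), and after correction the values were 0.01 ± 0.14, adjusted p = 0.974 and -0.20 ± 0.14, adjusted p = 0.380. The call against LPS was lost without LPS + ABS library 2 or LPS library 1 or 3 (adjusted p = 0.0679 to 0.0968).

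PSMF1, which encodes the proteasome inhibitor PI31, had 61.9, 64.4 and 62.3 CPM in LPS + ABS libraries, 59.2, 58.0 and 57.2 CPM in LPS libraries and 56.4, 56.2 and 57.9 CPM in control libraries. The LPS + ABS libraries were above all others by a small margin. PSMF1 was called in no comparison, with log2 fold changes of 0.11 ± 0.11, adjusted p = 0.438 between LPS + ABS and LPS (0.15 ± 0.10, adjusted p = 0.361 after correction) and 0.03 ± 0.11, adjusted p = 0.882 between LPS and control.

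The chaperones PSMG1 to PSMG4 guide assembly of the alpha ring. PSMG2 had 43.1, 48.3 and 42.2 CPM in LPS + ABS libraries, 64.7, 53.5 and 53.1 CPM in LPS libraries and 55.5, 49.2 and 51.8 CPM in control libraries, with LPS + ABS below both other groups. It was lower in LPS + ABS than in LPS from counts (-0.36 ± 0.13, adjusted p = 0.0476) and after GC correction (-0.56 ± 0.13, adjusted p = 0.0238). The corrected call was lost without LPS + ABS library 3 or LPS library 1 or 3 (adjusted p = 0.0529 to 0.0904), and that from counts without any LPS + ABS library or LPS library 1 or 3 (adjusted p = 0.0520 to 0.161). The span of PSMG2 overlaps SPIRE1 and CEP76. PSMG3 had 39.9, 34.1 and 34.5 CPM in LPS + ABS libraries, 27.3, 23.1 and 27.3 CPM in LPS libraries and 35.1, 33.8 and 34.3 CPM in control libraries, with LPS lowest. It differed by 0.48 ± 0.13, adjusted p = 0.0157 between LPS + ABS and LPS, by 0.06 ± 0.14, adjusted p = 0.801 after correction, and by -0.41 ± 0.13, adjusted p = 0.0517 between LPS and control. The PSMG3 call was lost without LPS library 2 (adjusted p = 0.0587). PSMG1 and PSMG4 were called in no comparison.

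Genes that act with the proteasome were described by 4 lists. Of 15 interferon-regulated genes of antigen processing, 8 were called higher with LPS than in control and 0 lower (53.3%, beside 7.71% of all genes called higher), with a median log2 fold change of 0.47, beside -0.03 over all genes. STAT2 (1.36 ± 0.16, adjusted p = 0.000314) and HLA-E (1.07 ± 0.18, adjusted p = 0.00245) were among them with IRF9 (1.02 ± 0.18, adjusted p = 0.00325), and IRF1, an interferon-induced transcription factor that acts on PSMB9, rose by 0.67 (adjusted p = 0.00972). TAP1, the peptide transporter gene next to PSMB9, had 400.1, 281 and 268 CPM in LPS + ABS libraries, 226, 334 and 405 CPM in LPS libraries and 238, 238 and 224 CPM in control libraries, LPS + ABS and LPS spreading widely (0.46 ± 0.20, adjusted p = 0.139 between LPS and control).

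Of the 15 genes, 2 were called higher and 2 lower in LPS + ABS than in LPS (26.7%, beside 35.6% of all genes), and 1 and 2 after correction (20%, beside 9.21%). NLRC5, the activator of MHC class I genes, was higher (0.96 ± 0.20, adjusted p = 0.00639, and 0.60 ± 0.17, adjusted p = 0.0407 after correction), and B2M, the light chain of MHC class I, was lower from counts (-0.54 ± 0.10, adjusted p = 0.00529) and not after correction (0.10 ± 0.12, adjusted p = 0.635). TAPBP was higher from counts (0.51 ± 0.18, adjusted p = 0.0469), and HLA-C lower after correction (-0.44 ± 0.12, adjusted p = 0.0380). Between LPS + ABS and control, 9 of the 15 were called higher and 0 lower from counts (60%, beside 14.8% of all genes called higher), and 3 and 0 after correction (STAT2, IRF1 and B2M; 20%, beside 7.96%).

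Of 10 genes that control proteasome transcription, 1 was called higher with LPS than in control and 0 lower from counts (10%, beside 14.9% of all genes). After GC correction 1 was higher and 2 lower, DDI2 and MAFK (30%, beside 21.1%). The gene called higher was NFE2L1 (NRF1), the factor that raises proteasome genes when the proteasome is inhibited, with 490.4, 438 and 272 CPM in LPS + ABS libraries, 431, 474 and 524 CPM in LPS libraries and 146, 152 and 144 CPM in control libraries. Both groups given LPS lay above all control libraries. The log2 fold change was 1.69 ± 0.18, adjusted p = 0.000169 between LPS and control and 1.44 ± 0.18, adjusted p = 0.000497 between LPS + ABS and control, 1.15 ± 0.17, adjusted p = 0.00131 after correction. DDI2, the protease that activates the NFE2L1 protein, had 7.53, 3.53 and 6.70 CPM in LPS + ABS libraries, 11.2, 10.6 and 12.6 CPM in LPS libraries and 17.7, 18.1 and 19.3 CPM in control libraries, with LPS + ABS lowest and control highest. Its difference between LPS and control was -0.68 ± 0.23, adjusted p = 0.0621 from counts and -0.64 ± 0.20, adjusted p = 0.0370 after correction. It was lower in LPS + ABS than in control (-1.64 ± 0.24, adjusted p = 0.000887), also after correction (-1.20 ± 0.20, adjusted p = 0.00288). NGLY1, the glycanase that processes the same protein, was lower in LPS + ABS than in LPS from counts (-0.77 ± 0.17, adjusted p = 0.00757) and not after correction (-0.30 ± 0.14, adjusted p = 0.182). In the list, 2 were called higher and 4 lower in LPS + ABS than in LPS (60%, beside 35.6% of all genes) and 0 after correction (4 at an unadjusted p under 0.05), beside 9.21%. Against control, LPS + ABS had 3 higher and 4 lower (70%, beside 33.8%), or 2 and 1 after correction (30%, beside 13.0%).

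Of 17 partners and assembly factors, AKIRIN2, which brings proteasomes into the nucleus, was called higher with LPS than in control (0.64 ± 0.14, adjusted p = 0.00910) and USP14, a deubiquitinase of the cap, lower (-0.58 ± 0.14, adjusted p = 0.0184). These were 11.8% of the list, beside 14.9% of all genes. After GC correction AKIRIN2 was again called higher and UBQLN4 lower, while USP14 was not called (-0.58 ± 0.19, adjusted p = 0.0515). In LPS + ABS against LPS 2 were called higher and 2 lower (23.5%, beside 35.6%), among them ECPAS, a proteasome adaptor, which was lower (-0.63 ± 0.16, adjusted p = 0.0119). After GC correction 4 were higher, UBQLN2, USP14, POMP and UCHL5, and ECPAS lower (29.4%, beside 9.21%). POMP, the maturation factor of new cores, had 71.8, 69.8 and 52.5 CPM in LPS + ABS libraries, 87.6, 64.8 and 77.6 CPM in LPS libraries and 97.6, 93.3 and 86.6 CPM in control libraries, and its log2 fold change between LPS + ABS and LPS was -0.24 ± 0.15, adjusted p = 0.226 from counts and 0.57 ± 0.13, adjusted p = 0.0203 after correction, at 34.6% GC. Against control, LPS + ABS had 2 partners called higher and 6 lower (47.1%, beside 33.8%), and 2 and 0 after correction (11.8%, beside 13.0%). Of 9 ubiquitin and segregase genes, 1 was called higher with LPS than in control and 0 lower (11.1%, beside 14.9% of all genes). In LPS + ABS against LPS, 3 of the 9 were called higher and 1 lower (44.4%, beside 35.6%), and 1 each after correction (22.2%, beside 9.21%). Against control, 0 were higher and 2 lower (22.2%, beside 33.8%), with 0 after correction (also 0 at an unadjusted p under 0.05), beside 13.0%.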

How the data were processed

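RNA-seq libraries of PMA-treated THP-1 cells were analysed from 2 deposited tables, one of counts and one of FPKM. The authors deposited read counts per gene, whole numbers without normalization, and FPKM, which divides by gene length and library size. The tools listed in the submitters' processing notes are HISAT2, fastp, DESeq2, HTSeq and R 3.2.0, without their roles; the genome build, annotation and strand setting are not given in the sources used here, and the labels name 2 library kits for every sample. Groups were taken from the labels. Genes with enough counts (edgeR's filterByExpr) were TMM-scaled and tested in 1 model over all 9 libraries with edgeR 4.0.16 (quasi-likelihood, R 4.3.3, limma 3.58.1), with Benjamini-Hochberg adjustment over 12970 genes. Total counts of 38506162 to 41679412 per library limit precision little for these genes; spread between libraries does more. In the GC correction, a lowess trend (span 0.3) of each library's log2 counts on transcript GC content (longest coding transcript of each gene, GENCODE v29; 16079 genes, 99.1%) entered as an offset. Ratios and sums of FPKM were compared by exact permutation tests in Python 3.11.15 with SciPy 1.17.1. The GC-corrected FPKM were also TMM-scaled, which changes the sums and cancels in the ratios. The procedure was checked on simulated data. DESeq2 1.42.0, other scalings and filters, 2-group fits, a replicate block and leaving out each library were alternatives; the GC-corrected fits without each library and with the block were added after seeing the data. The members and gene lists were chosen with earlier results of these data known. Named members are the immunoproteasome, activator, inhibitor and replaced catalytic subunits, the 6 with the smallest p in each comparison with LPS + ABS, those called between LPS and control, and others named after their values were seen because they were called. By the labels, libraries with the same number share only that number. Some genes of the related lists are not reported here by name.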

Additional observations from a re-analysis of the deposited data

How the results depend on the processing

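Between LPS and control, 0 members were called higher, against 1 with DESeq2, 1 with no filter on low counts, 4 in a fit of only those groups, 1 with a replicate block and 2 with GC correction, also with block (2). The 1 call lower became 2 with DESeq2, 2 with total counts, 2 with a filter of 100 counts and 4 in the fit of those groups. Between LPS + ABS and LPS, the 6 called higher became 3 with total counts, 3 unfiltered, 1 in a fit of only those groups, and 2 with GC correction, with or without the block (2). The 15 called lower became 4 with GC correction and 3 with correction and block. Between LPS + ABS and control, the 3 called higher became 5 with DESeq2, 0 with total counts, 1 in a fit of only those groups, 1 with the block and 1 with GC correction (2 with correction and block), and the 12 called lower became 2, or 3 with the block. The cause was not tested. Without 1 library, calls higher and lower ran 0 to 1 and 0 to 1 between LPS and control, 2 to 7 and 9 to 15 between LPS + ABS and LPS, and 0 to 6 and 7 to 12 between LPS + ABS and control. After GC correction they ran 0 to 2 and 0 to 1, 1 to 4 and 1 to 5, and 0 to 3 and 0 to 4.

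Between LPS + ABS and LPS, the log2 difference of 11 of 46 members turned sign with GC correction. The 5 of these called on either scale had, with correction (and with correction and block in brackets), 0.35 (0.33) for PSMA5, -0.046 (-0.045) for PSMD3, 0.62 (0.60) for PSMD12, 0.060 (0.051) for PSMD5 and 0.0090 for PSME4. The other 6, called on neither scale, were PSMA7, PSMB6, PSMB8, PSMB10, PSMC3 and PSMD8, positive from counts and -0.29 to -0.043 with correction. Against control, 19 of 46 turned sign, of which PSMA5 was called, with 0.34 (0.32), and 18 on neither scale, 14 of these to below 0 and 4 to above 0. PSMC3 turned between LPS and control. With GC correction, between LPS + ABS and LPS, the log2 difference was -0.31 for the PSMB10 to PSMB7 ratio, -0.35 for the immunoproteasome to catalytic ratio, -0.11 for the 20S alpha sum, -0.32 for the immunoproteasome sum, -0.11 for the ATPase sum, -0.080 for the non-ATPase sum, -0.37 for the PSME1 and PSME2 sum, -0.099 for the 19S to 20S ratio. With GC correction, between LPS + ABS and control, the log2 difference was -0.35 for the PSMB10 to PSMB7 ratio, -0.15 for the immunoproteasome to catalytic ratio, -0.12 for the 20S alpha sum, -0.19 for the immunoproteasome sum, -0.097 for the ATPase sum, -0.18 for the PSME1 and PSME2 sum, -0.0062 for the 19S to 20S ratio. With TMM-scaled FPKM, between LPS + ABS and LPS, the log2 difference was 0.096 for the ATPase sum, 0.11 for the non-ATPase sum. With TMM-scaled FPKM, between LPS + ABS and control, the log2 difference was -0.29 for the 20S alpha sum, 0.096 for the constitutive beta sum, 0.10 for the ATPase sum, 0.12 for the non-ATPase sum, 0.12 for the PSME1 and PSME2 sum. The GC-corrected sums are TMM-scaled as well, so their change from the deposited sums holds both steps. For the 20S alpha sum against control, the difference was -0.41 as deposited, -0.29 with TMM scaling alone and -0.12 with both. The scaling cancels in the ratios.

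Deviations of same-numbered libraries correlated between -0.04 and 0.20, with 3 of 9 pairs over 0.1. Those of differently numbered libraries correlated between -0.20 and 0.17. Such values cannot show whether same-numbered libraries shared a culture or a batch. The labels state no such link, so the replicate block rests on the number alone. Depth limits these results little; 3 libraries a group, unstated independence and the GC trend of the LPS + ABS libraries, which cannot be told apart from the treatment, limit them more. Reads of pseudogenes and overlapping genes may be shared.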
